A study of Mus musculus with 8 samples.

Results

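The 37 genes of the mouse mitochondrial genome were followed in ventricular poly(A) RNA of 4 samples heterozygous for a deletion in Pkp2 (HET) and 4 wild-type samples (WT). Members were the rows of the raw count table whose gene symbol begins with mt-, 37 of 38293, and comprised 13 mRNAs, 2 rRNAs and 22 tRNAs. The HET group carried 1 mutant Pkp2 allele (PKP2 c.1755delA/WT in the series title) and the WT group none, and both were taken at 8 weeks of age from a mix of left and right ventricle. No other allele or treatment is labelled in either group. The labels do not tell whether each sample is a different animal, and p-values therefore describe only the spread among these samples. Pkp2, the desmosomal gene that carries the deletion, averaged 97.3 ± 7.2 CPM (counts scaled to a common library size, per 1e6) in HET ventricle and 162.7 ± 9.6 CPM in WT ventricle (SD, n = 4 each; log2 fold change -0.74, adjusted p = 0.00376 by edgeR), which fits the genotype labels. Depth was 32397302 to 38611008 counts per library in HET and 38510257 to 41234883 in WT.

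The mitochondrial genome is a small circle that heart muscle cells, which are packed with mitochondria, carry in many copies. It encodes core subunits of the respiratory chain and of ATP synthase, and the rRNAs and tRNAs with which mitochondria translate them. Both strands are transcribed as long precursors that are cut largely at the tRNAs lying between the other genes, and most of the mRNAs then receive short poly(A) tails. Pieces of this genome have also been copied into the nuclear chromosomes, where they are annotated as pseudogenes. Of the 3 transcripts proposed as markers of the group, mt-Co1 and mt-Nd1 were abundant, while mt-Atp6 had 0 to 2 counts in each library, so that the label held for part of the group.

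The mRNAs fell into 2 sets that did not approach each other in counts. The first set of 7 (mt-Nd1, mt-Nd2, mt-Nd4, mt-Nd5 and mt-Nd6 of complex I, mt-Cytb of complex III and mt-Co1 of complex IV) had 1171 to 2383298 counts in every library. The second set of 6 (mt-Co2 and mt-Co3 of complex IV, mt-Atp6 and mt-Atp8 of ATP synthase, and mt-Nd3 and mt-Nd4l of complex I) had 0 to 5 counts in every library of either genotype. Summed over all 8 libraries, the 6 held 42 counts in all, of which 17 belonged to mt-Nd3, 9 each to mt-Co2 and mt-Co3, 5 to mt-Atp6 and 1 each to mt-Atp8 and mt-Nd4l. The per-library sum over the 6 was 2, 5, 9 and 2 in HET, against 14, 4, 4 and 2 in WT. A count of 0 in a library allows up to 3 counts, or 0.0721 to 0.0936 CPM across the libraries, which covers counting error alone.

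The near-zero mRNA genes follow each other on the mitochondrial genome, with tRNA genes between some of them, and 5 of the 6 have an annotated nuclear copy that is nearly or fully identical. The first 90 bases of mt-Co2 are shown beside its annotated copies on chromosomes 1 and 2, with bases that differ from mt-Co2 in capitals. The sequences are GENCODE M21 transcripts on GRCm38, at chrM:7013-7102 (plus strand), chr1:24615476-24615565 (minus strand) and chr2:22587873-22587962 (minus strand).
mt-Co2: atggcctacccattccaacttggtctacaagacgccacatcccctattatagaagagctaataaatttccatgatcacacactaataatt
Gm28661: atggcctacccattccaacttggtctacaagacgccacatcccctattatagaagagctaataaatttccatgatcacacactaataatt
Gm13341: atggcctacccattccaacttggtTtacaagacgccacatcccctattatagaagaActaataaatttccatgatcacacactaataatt

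Gm28661 matched mt-Co2 without a mismatch over 681 of its 684 bases. The same held for Gm10925 over 678 bases of mt-Atp6, for Gm28437 over 783 bases of mt-Co3 and for Gm10222 over 294 bases of mt-Nd4l, and Gm28438 matched 345 bases of mt-Nd3 with 1 mismatch. Each gene was read in windows of 50 bases, and a window was called shared when the same letters occurred in an annotated nuclear copy on either strand. Of these windows, 100% were shared in mt-Co2, 99.5% in mt-Atp6, 99.9% in mt-Co3, 98.0% in mt-Nd3 and 98.8% in mt-Nd4l. The exception was mt-Atp8, in which 0 windows were shared, since its annotated match is the 43 bases it has in common with mt-Atp6.

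The nuclear copies keep the order and spacing of the originals. On chromosome 1 they lie between 24611535 and 24616197 on the minus strand (GRCm38), and the start of the mt-Atp6 copy is 914 bases from that of the mt-Co2 copy, the same distance as on the mitochondrial genome. The copy of mt-Co3 is 1594 bases away in both, that of mt-Nd3 2446 bases in both, and those of mt-Nd4l and mt-Nd4 are 2865 and 3155 bases away on chromosome 1, against 2864 and 3154 on the mitochondrial genome. mt-Atp8 lies between mt-Co2 and mt-Atp6, and the nuclear sequence between the copies of these 2 was not analysed here. Reads that fit more than 1 place equally well are commonly set aside by gene counters, but the settings used for this table are not given in the sources used here. How far this bears on the near-zero counts was not tested, and the counts of these 6 genes are therefore uncertain as levels of the mRNAs.

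The block on chromosome 1 ends inside mt-Co1 on the near side and inside mt-Nd4 on the far side, and both of these genes had high counts. Both borders are shown over 90 bases with the stretch aligned to the chromosome 1 copy in capitals (mt-Co1 at chrM:6345-6434 against Gm29216, mt-Nd4 at chrM:10998-11087 against Gm28439, plus strand).
mt-Co1: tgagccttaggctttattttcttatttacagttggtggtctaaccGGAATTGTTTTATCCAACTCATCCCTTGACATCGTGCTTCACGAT
mt-Nd4: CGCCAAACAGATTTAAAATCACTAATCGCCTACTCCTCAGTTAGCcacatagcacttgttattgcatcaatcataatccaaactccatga

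In mt-Co1 51.1% of windows of 50 bases and 30.8% of windows of 100 bases were shared with a nuclear copy. In mt-Nd4 62.2% and 60.8% were shared for the same lengths. The shares were 8.19% and 3.19% in mt-Nd2, 7.61% and 0% in mt-Nd5, and 0% in mt-Nd1, mt-Nd6, mt-Cytb and both rRNAs. The read length is not given in the sources used here, so windows of 50, 75 and 100 bases were read.

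**Figure D1:**
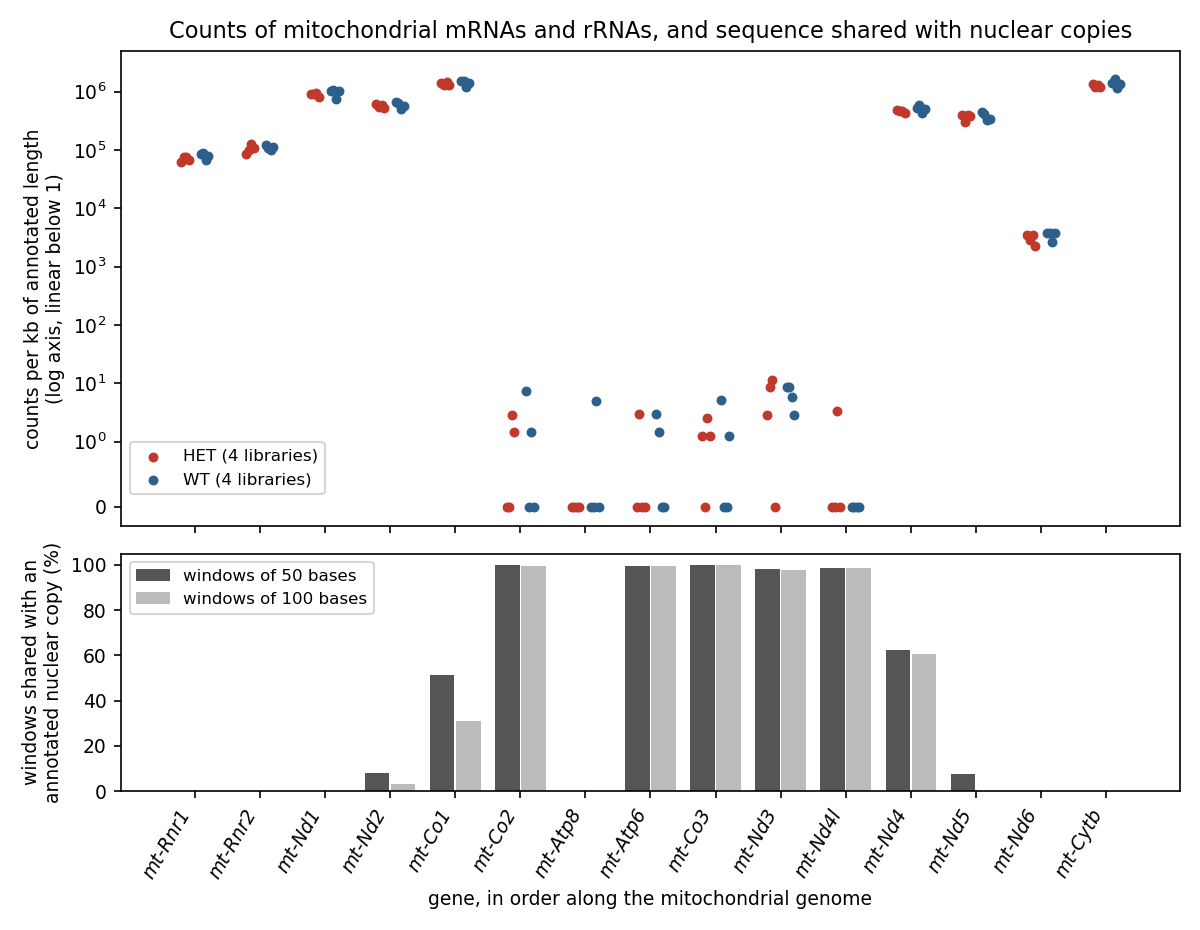
Top, counts per kb of annotated length for the mRNAs and rRNAs in order along the mitochondrial genome, 1 point per library (HET red, WT blue; log axis, linear below 1). Bottom, percentage of windows of 50 and of 100 bases that also occur in an annotated nuclear copy; the 6 mRNAs at 0 to 5 counts stand side by side between mt-Co1 and mt-Nd4, and 5 of them share at least 98.0% of windows of 50 bases.

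Among the 9 counted mRNAs and rRNAs, mt-Co1 and mt-Cytb had the highest levels per length; the 6 near-zero mRNAs could not be placed in this order. Over all 8 libraries the level per kb of annotated length was 36590 ± 3381 CPM for mt-Co1, the catalytic core of cytochrome c oxidase, and 34479 ± 3733 CPM for mt-Cytb, the core of the cytochrome bc1 complex (SD, n = 8). The ranges of the pair overlapped, and mt-Co1 was the higher in 7 of 8 libraries. Next came mt-Nd1 at 24433 ± 2906 CPM per kb, mt-Nd2 at 15246 ± 1526, mt-Nd4 at 12714 ± 1373 and mt-Nd5 at 9880 ± 1073, all membrane subunits of complex I. Each of these was above the next within 8 of 8 libraries, although the ranges over libraries overlapped between mt-Cytb and mt-Nd1, mt-Nd2 and mt-Nd4, and mt-Nd4 and mt-Nd5. mt-Co1 stood 3.40 to 4.24 times above mt-Nd5 per kb, depending on the library.

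The place of mt-Nd4 in this order depended on how length was counted. When the same scaled counts were divided by the number of unshared windows instead of the annotated length, mt-Nd4 stood at 34900 ± 3768 CPM per 1000 windows, next after mt-Co1 and mt-Cytb, for windows of 50, 75 and 100 bases alike. By annotated length it stood below mt-Nd1 and mt-Nd2 as well. At windows of 100 bases mt-Cytb was at 37745 ± 4087 and mt-Nd1 at 27252 ± 3241 CPM per 1000 windows. mt-Co1 moved further from mt-Cytb, at 56531 ± 5223 CPM per 1000 windows of 100 bases and 77334 ± 7146 of 50 bases, and its range no longer overlapped that of mt-Cytb.

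The rRNAs, which form the small (mt-Rnr1) and large (mt-Rnr2) subunit of the mitochondrial ribosome, were below the 6 abundant plus-strand mRNAs per kb in this poly(A)-selected RNA. mt-Rnr2 was at 2842 ± 366 CPM per kb and mt-Rnr1 at 1976 ± 257 (SD over 8 libraries). mt-Rnr2 had 3589, 4964, 5317 and 4871 CPM in HET, against 4616, 4241, 3860 and 4512 CPM in WT. mt-Rnr1 had 1582, 2251, 1949 and 1772 CPM in HET, against 1954, 2102, 1534 and 1954 CPM in WT. HET replicate 1 was the lowest library for mt-Rnr2 and WT replicate 3 for mt-Rnr1, and the groups overlapped for both. Counts of mt-Rnr2 per count of mt-Rnr1 were 2.27, 2.20, 2.73 and 2.75 in HET, against 2.36, 2.02, 2.52 and 2.31 in WT. The rRNAs made up 2.87% to 3.94% of mitochondrial counts in HET and 3.30% to 3.84% in WT.

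mt-Nd6, a complex I subunit and the 1 mRNA encoded on the minus strand, was far below its plus-strand neighbours. It had 47.0, 46.3, 48.6 and 32.9 CPM in HET, against 47.6, 49.6, 33.4 and 49.8 CPM in WT. HET replicate 4 and WT replicate 3 were low and the other 6 libraries lay close together. Its level per kb was 0.817% ± 0.15 of that of mt-Nd5 in HET and 0.925% ± 0.14 in WT (SD, n = 4 each). mt-Nd5 is the gene whose 3′ end it overlaps by 14 bases on the opposite strand. Human ND6 mRNA is known to lack the poly(A) tail that the other mitochondrial mRNAs carry.

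The 3 mRNAs whose genes end in an incomplete stop codon were found in both sets. In mammals the tail completes such a codon, and the last 24 bases show it in capitals for the 3 cases, with mt-Nd1 and mt-Co1 as examples of a whole stop (plus strand, at chrM:15265-15288 for mt-Cytb, chrM:11521-11544 for mt-Nd4, chrM:9367-9390 for mt-Co3, chrM:3684-3707 for mt-Nd1 and chrM:6849-6872 for mt-Co1).
mt-Cytb: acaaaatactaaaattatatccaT
mt-Nd4: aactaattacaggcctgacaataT
mt-Co3: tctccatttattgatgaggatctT
mt-Nd1: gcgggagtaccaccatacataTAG
mt-Co1: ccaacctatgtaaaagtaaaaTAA

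Of these 3, mt-Cytb and mt-Nd4 were among the counted mRNAs and mt-Co3 was in the near-zero set.

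The 22 tRNA rows were nearly empty apart from a few. Together they took 0.0398% to 0.0607% of mitochondrial counts in HET and 0.0494% to 0.0578% in WT. mt-Ti (isoleucine) had 1314, 2180, 2020 and 1384 counts in HET, against 2084, 2416, 1408 and 2030 in WT. mt-Tw (tryptophan) had 669, 724, 902 and 846 counts in HET, against 1237, 881, 747 and 902 in WT. mt-Tm (methionine) had 631, 745, 666 and 450 counts in HET, against 897, 607, 641 and 662 in WT. All 3 lie on the plus strand beside mt-Nd1 or mt-Nd2, and their ranges overlapped between the groups. Their sequences are printed 5′ to 3′ for orientation, since these short genes carried nearly all tRNA counts (chrM:3706-3774, chrM:4950-5016 and chrM:3845-3913, plus strand).
mt-Ti: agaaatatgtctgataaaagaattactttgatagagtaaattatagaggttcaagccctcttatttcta
mt-Tw: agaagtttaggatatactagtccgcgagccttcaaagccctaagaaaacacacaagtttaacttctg
mt-Tm: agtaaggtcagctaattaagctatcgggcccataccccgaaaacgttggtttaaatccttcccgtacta

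mt-Ti overlaps mt-Nd1 by 2 bases and mt-Tw overlaps mt-Nd2 by 2 bases on the same strand, so reads over these joins lie on both genes. Whether such reads were counted, and for which gene, depends on the overlap mode, which is not given. mt-Tm does not overlap a neighbouring gene.

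Summed tRNA counts differed by strand, through 5 plus-strand genes. Of the 14 plus-strand tRNAs, 9 had 0 counts in every library, against 2 of the 8 minus-strand tRNAs. Among these empty rows, mt-Ts1 (minus strand), mt-Td, mt-Tk, mt-Tg and mt-Tr lie between mt-Co1 and mt-Nd4. That is the stretch whose genes have copies in the chromosome 1 block. The nuclear sequence between those copies was not analysed here, so these zeros are uncertain as levels. The 14 plus-strand tRNAs summed to 2700 to 3747 counts in HET and 2862 to 4310 in WT, while the 8 minus-strand tRNAs summed to 4, 7, 2 and 5 counts in HET, against 6, 25, 8 and 23 in WT. Without mt-Ti, mt-Tm and mt-Tw the plus-strand sum was 86 to 98 counts in HET and 66 to 107 in WT. All of these counts belonged to mt-Tt and mt-Tl1. The neighbours mt-Tt (threonine, plus strand) and mt-Tp (proline, minus strand) show the contrast side by side. mt-Tt had 72, 90, 70 and 64 counts in HET, against 73, 71, 61 and 88 in WT, and mt-Tp had 0, 4, 1 and 4 in HET, against 2, 11, 6 and 14 in WT. mt-Tl1 (leucine), between mt-Rnr2 and mt-Nd1, had 14, 8, 21 and 23 counts in HET, against 19, 10, 5 and 19 in WT. Of the other tRNAs, 11 had 0 counts in every library, 9 of them on the plus strand, and the remaining 5 had at most 11 counts. The library kit is stranded per the labels' protocols, but the strand setting of the counting is not given in the sources used here.

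**Figure D2:**
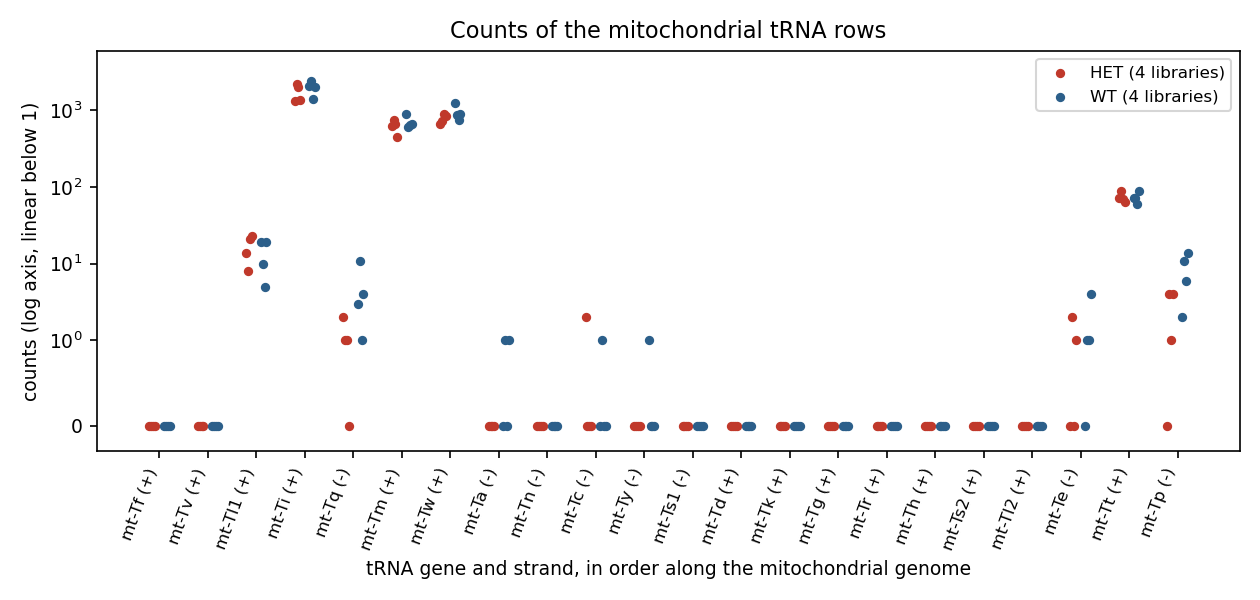
Counts of the 22 tRNA rows in order along the mitochondrial genome, with the strand of each in brackets, 1 point per library (HET red, WT blue; log axis, linear below 1). mt-Ti, mt-Tm and mt-Tw hold 450 to 2416 counts, mt-Tt 61 to 90, and no minus-strand tRNA exceeds 14.

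Mitochondrial rows took a similar part of the libraries of either genotype. The 6 near-zero mRNAs are all but absent from this part as well. The share of all counts in mitochondrial rows was 17.6%, 19.1%, 18.1% and 17.1% in HET, against 18.1%, 19.1%, 14.7% and 17.8% in WT. The means were 18.0% ± 0.83 in HET and 17.4% ± 1.9 in WT (SD, n = 4 each). The groups overlapped, and WT replicate 3 stood below the other 7 libraries. Counting error is small beside these differences, at most 0.014 percentage points to either side (95% Wilson interval). Without WT replicate 3 the WT mean was 18.3% ± 0.65 (SD, n = 3) and the difference of HET minus WT was -0.348 percentage points, against 0.569 with all libraries. Without WT replicate 2 it was 1.12, and without HET replicate 2 it was 0.204. In bulk tissue, fewer cells of a type and less RNA per cell cannot be told apart.

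**Figure D3:**
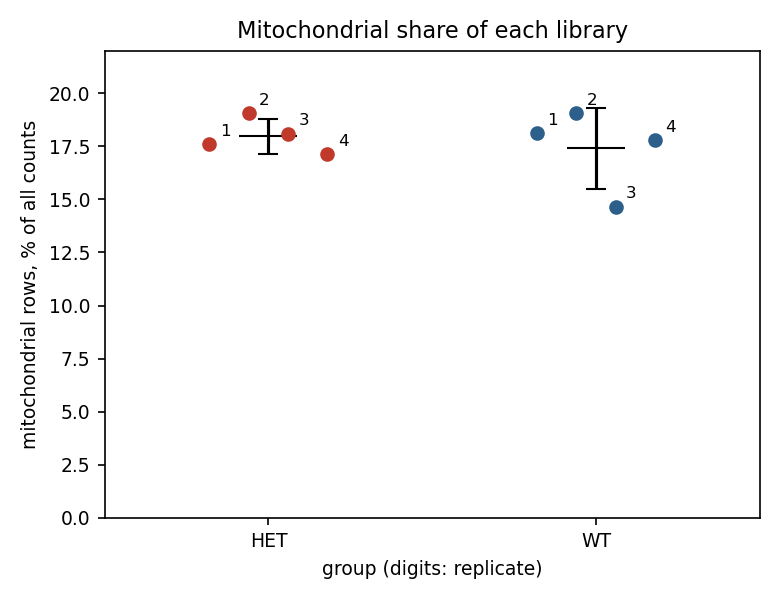
Share of all counts in the 37 mitochondrial rows, 1 point per library with its replicate number, and mean ± SD per group (bars); the axis starts at 0. WT replicate 3 at 14.7% lies below the other 7 libraries at 17.1% to 19.1%.

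The low share of WT replicate 3 was spread over the genome. Of the 9 counted mRNAs and rRNAs, 7 had their lowest CPM of all 8 libraries there, mt-Rnr2 and mt-Nd6 being the exceptions. Its levels ran from 68.2% (mt-Nd6) to 86.6% (mt-Rnr2) of the mean of the other 3 WT libraries, with mt-Co1 at 77.7% and mt-Nd1 at 71.0%. Within the mitochondrial counts, by contrast, its share for 8 of the 9 genes lay inside the range of the other 7 libraries. The same library had the highest summed level of 7 macrophage markers, 410 CPM against 291 to 351 CPM in the other 7 libraries. Among these, Lyz2 was level with WT replicate 4 (182.5 and 181.6 CPM), and C1qa had 76.2 CPM against 41.5 to 52.9 CPM. The sum of 8 lymphocyte markers was 17.7 CPM, against 8.93 to 14.1 CPM. Most of it was Ighm, at 13.8 CPM against 6.90 to 11.3 CPM. Its summed red blood cell markers were 495 CPM, against 211 to 391 CPM in the others. All members of these lists were above 3 counts in some library. Its 8 summed cardiomyocyte markers were 75116 CPM, inside the range of 73296 to 81770 CPM over all libraries. Its summed endothelium, fibroblast, smooth muscle and pericyte, adipocyte and atrium markers also lay inside the range of the other libraries. The part of these in its mitochondrial share was not tested.

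No mitochondrial gene passed the test between HET and WT. Of the 37 members, 14 passed the filter on low counts (7 mRNAs, 2 rRNAs and 5 tRNAs), and 0 of these were called by edgeR's quasi-likelihood test at an adjusted p of 0.05 over 14567 genes, where 0.00686% of all genes were called. At an unadjusted p under 0.05 the count was also 0 of 14, against 6.38% of all genes, and DESeq2 called 0 members by either measure. The groups did not overlap for 0 of 14, against 3.78% of all genes. Over the 7 mRNAs tested the median log2 fold change, HET over WT, was 0.069, against -0.0038 over all genes. Its sign was not fixed: with 1 library left out it ran from -0.042 (without WT replicate 3) to 0.13 (without WT replicate 2). It was 0.13 with 4 digits shared by sample titles as covariate and -0.015 with scaling to the mitochondrial total.

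mt-Nd2 had the smallest p of the members. It stood at 16768, 17724, 16591 and 15181 CPM in HET, against 16370, 16418, 12548 and 15006 CPM in WT. HET replicate 2 was highest and WT replicate 3 lowest, and the log2 fold change was 0.14 (95% interval -0.052 to 0.32; edgeR adjusted p = 0.773). mt-Co1 had 57706, 61356, 60600 and 55771 CPM in HET, against 57279, 58898, 44581 and 56059 CPM in WT. Here 3 WT libraries lay within the HET range, and the log2 fold change was 0.12 (interval -0.059 to 0.30). mt-Nd5 had 19213, 17438, 19510 and 19251 CPM in HET, against 19879, 18666, 14621 and 15597 CPM in WT. WT replicates 3 and 4 were the low libraries, and the log2 fold change was 0.13 (interval -0.074 to 0.34).

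The remaining abundant mRNAs had log2 fold changes nearer to 0. mt-Nd1 had 23199, 26630, 24144 and 21785 CPM in HET, against 23854, 25122, 17466 and 24858 CPM in WT (log2 fold change 0.069, interval -0.19 to 0.33). WT replicates 1, 2 and 4 lay close together, near the middle of the HET range. mt-Cytb had 40322, 42619, 38838 and 37780 CPM in HET, against 38493, 46431, 31449 and 39619 CPM in WT (0.033, interval -0.19 to 0.26). Both the highest and the lowest library of mt-Cytb were WT. mt-Nd4 had 17649, 19659, 17152 and 16336 CPM in HET, against 17012, 20301, 14230 and 17822 CPM in WT (0.029, interval -0.20 to 0.25). The ordering again put WT replicate 2 at the top and WT replicate 3 at the bottom. For mt-Nd6 the log2 fold change was -0.045 (interval -0.42 to 0.33), for mt-Rnr2 0.12 (interval -0.14 to 0.38) and for mt-Rnr1 0.0020 (interval -0.28 to 0.28).

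Of the 7 mRNAs 6 had a positive value, and for 3 of these the sign turned with 1 library left out. Without WT replicate 3 the values of mt-Nd1 (-0.042), mt-Nd4 (-0.056) and mt-Cytb (-0.060) became negative, and those of mt-Nd2, mt-Co1 and mt-Nd5 were 0.054, 0.034 and 0.061. With library-size scaling mt-Nd4 (-0.0098) and mt-Cytb (-0.0064) were negative too. Among the tRNAs tested, mt-Tl1 had 0.48 (interval -0.48 to 1.44) and mt-Tt 0.20 (interval -0.23 to 0.63). mt-Tw (-0.079), mt-Ti (-0.011) and mt-Tm (0.021) were closer to 0, with intervals of -0.42 to 0.26, -0.64 to 0.62 and -0.40 to 0.44.

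**Figure D4:**
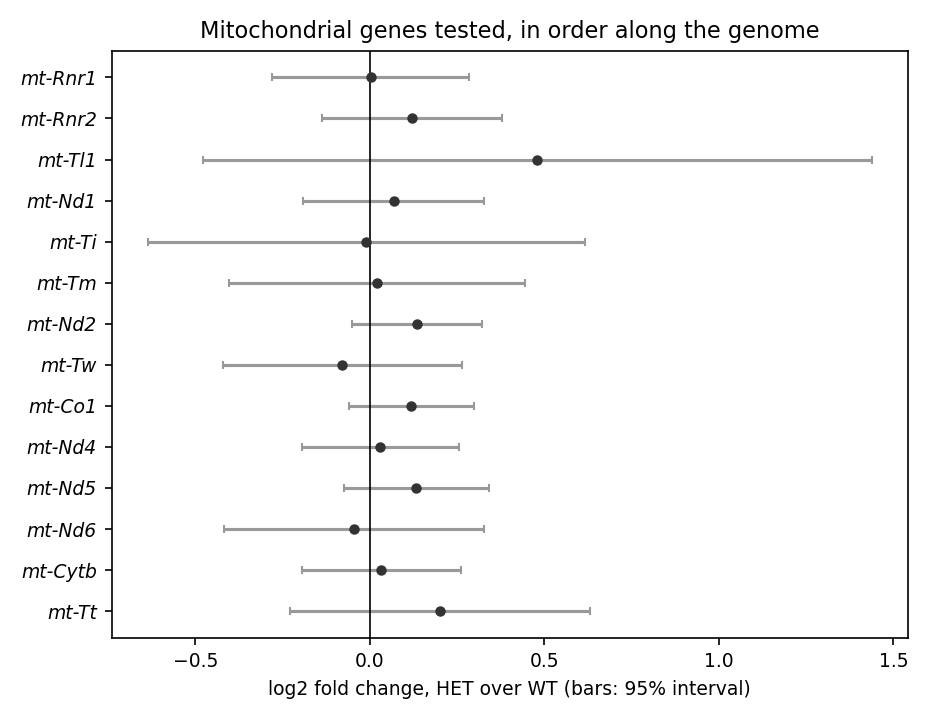
Log2 fold change of HET over WT for the 14 mitochondrial genes that passed the filter, in order along the genome, with 95% intervals (bars) from edgeR. All intervals include 0, and they are widest for the weakly counted tRNA mt-Tl1 (-0.48 to 1.44).

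The composition of the mitochondrial counts was alike in its main parts. The 6 near-zero mRNAs are all but absent from these counts, so the shares do not describe all mitochondrial RNA. mt-Co1 took 32.3% ± 0.46 of mitochondrial counts in HET, with a range of 31.8% to 32.9%, and 31.6% ± 0.62 in WT, with a range of 30.6% to 31.9% (SD, n = 4 each). The sum of mt-Co1 and mt-Cytb ran from 53.3% to 54.8% over all 8 libraries. mt-Cytb alone took 21.9% ± 0.56 in HET and 22.6% ± 1.1 in WT (SD, n = 4 each), and mt-Nd1 13.1% ± 0.52 in HET and 13.2% ± 0.71 in WT. The 5 counted complex I mRNAs together made up 42.2% ± 0.31 in HET and 42.1% ± 0.55 in WT. mt-Nd2 held 9.07% ± 0.23 in HET and 8.78% ± 0.29 in WT, and mt-Nd4 9.69% ± 0.40 in HET and 10.1% ± 0.45 in WT. The groups overlapped for each of these shares. When counts were scaled to the mitochondrial total, so that the test compares shares, 0 members were called, and the median log2 fold change of all genes moved to -0.11. Relative to the mitochondrial total, mt-Co1 had a log2 fold change of 0.032, mt-Nd2 0.047, mt-Nd5 0.048, mt-Nd1 -0.015, mt-Cytb -0.051, mt-Nd4 -0.057 and mt-Nd6 -0.13.

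For 3 of the 9 counted genes (mt-Nd4, mt-Nd5 and mt-Rnr1), shares did not overlap between 4 libraries that share title digits and the other 4. How often genes of the whole table split in this way was not examined. Shares of 1 total also depend on each other. mt-Nd5 took 10.7%, 9.04%, 10.6% and 11.1% of mitochondrial counts in HET, against 11.1%, 9.71%, 10.4% and 8.88% in WT. HET replicates 1, 3 and 4 and WT replicate 1 share 4 digits of their sample titles, and these 4 libraries had the highest shares of mt-Nd5. A second run of digits is shared by HET replicate 2 and WT replicates 3 and 4, and WT replicate 2 has its own. The labels do not say what the digits mark. The difference of HET minus WT was -0.271 percentage points within the first set (n = 3 HET and 1 WT) and -0.605 within the second (n = 1 HET and 2 WT), against 0.341 over all libraries, so the pooled direction did not hold within either set. mt-Nd4 and mt-Rnr1 split the other way. mt-Nd4 took 9.31% to 9.80% in the first set and 10.1% to 10.6% in the other 4 libraries, and mt-Rnr1 0.878% to 1.088% in the first set and 1.093% to 1.17% in the others, without overlap. The pooled difference of mt-Nd4 was -0.390 percentage points, against 0.047 and 0.053 within the sets. For mt-Rnr2 it was 0.044 pooled, against -0.0048 and -0.085 within the sets. Of the 9 counted genes, the sign turned in both sets for mt-Nd4, mt-Nd5 and mt-Rnr2, was opposite between the sets for 5, and was kept in both for mt-Nd6. Each within-set difference has 1 library on 1 side and leaves out WT replicate 2. For mt-Nd4, mt-Nd5 and mt-Rnr2 these differences were smaller than the SD of either group. For mt-Nd4 and mt-Nd5 that SD also holds the gap between the sets, so it does not measure the spread within a set. With 1 library on 1 side, the signs settle no direction. For the mitochondrial share of all counts the differences were -0.510 and 2.84 percentage points in the first and the second set, and WT replicate 3 belongs to the second.

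**Figure D5:**
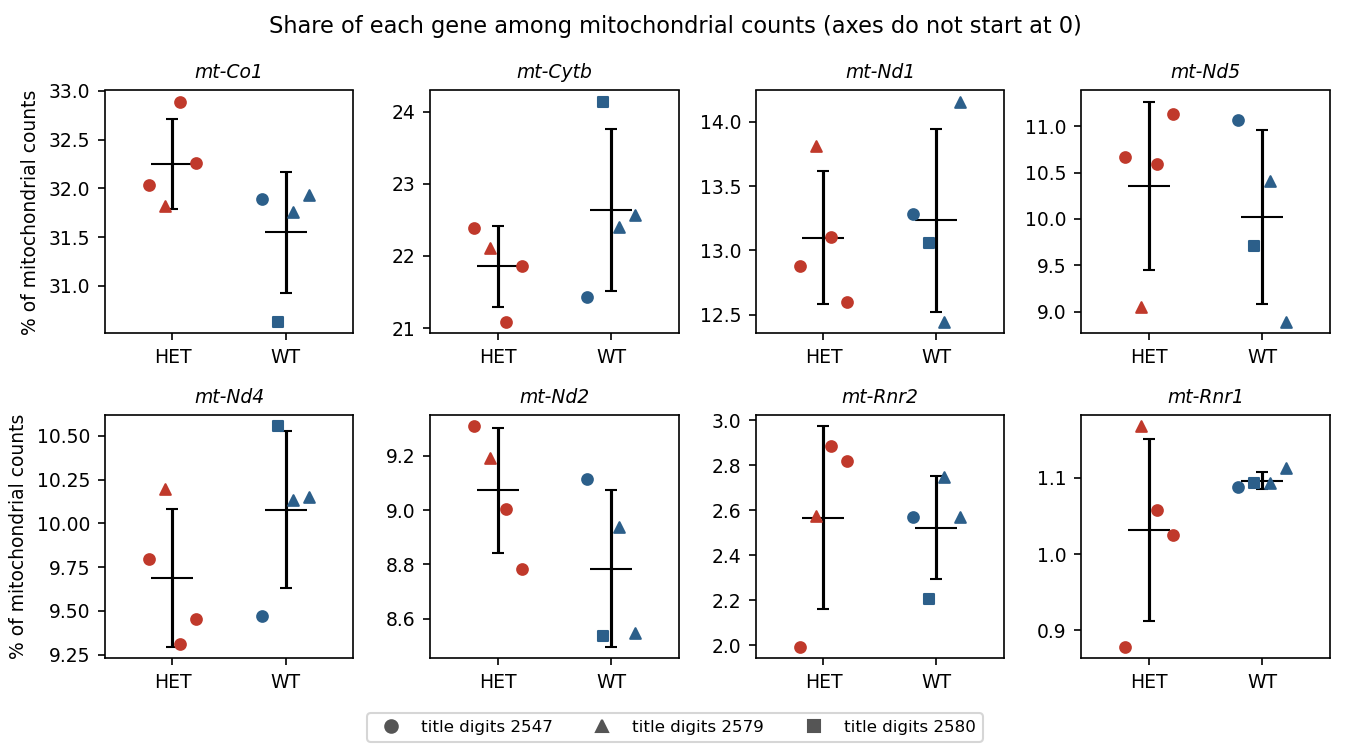
Share of mitochondrial counts for 8 genes, 1 point per library with mean ± SD per group (bars); marker shapes give the 4 digits that sample titles share, and each panel has its own axis that does not start at 0. HET and WT overlap in each panel, and the 4 libraries drawn as circles lie at 10.6% to 11.1% for mt-Nd5, above the other 4, and at 9.31% to 9.80% for mt-Nd4, below the other 4.

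Of 17 annotated nuclear copies with at least 90% identity over an aligned stretch, 9 had a row in the count table. Their counts summed to 910 to 1068 in HET and 921 to 1165 in WT. The identifiers of the other 8, among them all of the chromosome 1 block except Gm10222, have no row in the count table, so no counts can be given. Gm13340 on chromosome 2, 97.6% identical to mt-Co1 over 1545 bases, had 598, 554, 661 and 588 counts in HET, against 593, 684, 529 and 557 in WT. There were 3379 to 3642 mt-Co1 counts for each Gm13340 count in HET and 3423 to 4019 in WT. Gm13341, the copy of mt-Co2 printed above with 95.9% identity, had 291, 287, 303 and 294 counts in HET, against 349, 390, 308 and 316 in WT, more than mt-Co2 itself in every library. Gm10222, identical to mt-Nd4l over 294 bases, had 0 to 3 counts in HET and 2 to 4 in WT. The log2 fold changes were 0.20 (interval 0.0058 to 0.40; adjusted p = 0.770 by edgeR) for Gm13340, -0.033 for Gm13341, 0.24 for Gm4076, 0.34 for Gm11410 and 0.0042 for Gm11512.

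Nuclear genes for the copying and expression of mitochondrial DNA held no called gene either. The list, called the machinery below, covers replication, transcription, RNA processing, RNA stability and translation. It also includes 11 regulators of mitochondrial biogenesis. Of 87 listed symbols 85 were in the table and all were tested, 0 were called over all genes, and the median log2 fold change was 0.033, with 58 positive and 27 negative (51.5% of all genes tested were negative). At an unadjusted p under 0.05, 4 were higher and 1 lower in HET, against 2.75% and 3.63% of all genes in these directions. Polrmt, the mitochondrial RNA polymerase, averaged 52.4 ± 4.7 CPM in HET hearts and 51.2 ± 1.9 CPM in WT hearts (log2 fold change 0.034, interval -0.11 to 0.18). Tfam, which packages the genome and helps start transcription, averaged 44.1 ± 1.9 CPM in HET hearts and 41.2 ± 2.5 CPM in WT hearts (0.099, interval -0.026 to 0.23). Both ranges of libraries overlapped. Lrpprc and its partner Slirp, which stabilise mitochondrial mRNAs, had 0.071 (interval -0.049 to 0.19) and -0.020 (interval -0.14 to 0.098).

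The members of the machinery with the smallest p did not pass either. Grsf1, an RNA-binding protein of mitochondrial RNA granules, averaged 217 ± 3.7 CPM in HET hearts and 199 ± 5.2 CPM in WT hearts, and the libraries did not overlap (log2 fold change 0.12, SE 0.042, edgeR adjusted p = 0.770). Mtif2, a translation initiation factor, averaged 53.2 ± 2.7 CPM in HET hearts and 48.5 ± 2.2 CPM in WT hearts (0.13, SE 0.053). Primpol, a primase-polymerase, averaged 3.08 ± 0.38 CPM in HET hearts and 3.78 ± 0.16 CPM in WT hearts (-0.29, SE 0.12). The remaining genes were Ptcd3, a protein of the mitochondrial ribosome (0.16, SE 0.057), Taco1, an activator of mt-Co1 translation (0.18, SE 0.070), and Twnk, the replicative helicase (0.13, SE 0.060). Of the 85, the libraries of 7 did not overlap between the groups in either direction. Over all genes this share was 3.78%, with 1.7% higher and 2.08% lower in every HET library.

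Nuclear-encoded partners in the same complexes likewise held 0 called genes. The median log2 fold change was 0.0072 for 36 complex I subunits, 0.019 for 9 of complex III, -0.0018 for 14 of complex IV and 0.023 for 16 of complex V. The member of smallest p was Ndufs1 in complex I, with 836 ± 32 CPM in HET hearts and 772 ± 27 CPM in WT hearts (0.11, interval 0.013 to 0.22, adjusted p = 0.770 by edgeR). In the other complexes it was Uqcrc2 (0.072, interval -0.032 to 0.18), Cox6a1 (-0.12, interval -0.25 to 0.0013) and Atp5a1 (0.073, interval -0.020 to 0.17). The libraries of Cox6a1, a subunit of cytochrome c oxidase, did not overlap, at 68.6 ± 4.3 CPM in HET hearts and 74.7 ± 2.8 CPM in WT hearts. It was the 1 such gene of 14 in complex IV, and complexes I, III and V had 0, against 3.78% of all genes.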

How the data were processed

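The submitters' processing notes name STAR 2.4.2a, HTSeq 0.6.1 and GRCm38/mm10, and the deposited values are raw read counts per Ensembl gene, not normalised. The annotation release, strand setting and overlap mode of the counting are not given in the sources used here, which leaves genes that overlap or have near-identical copies uncertain. A Trizol extraction and a stranded poly(A) kit are given per the labels' protocols. Groups came from the genotype label, replicates were numbered in order of deposition, and symbols were matched by Ensembl identifier (36345 of 38293). Within a group, libraries compared by chi-square differed by 14.0 or more per gene on average, so none was counted as a copy of another.

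The test was that of edgeR 4.0.16 (R 4.3.3): filterByExpr (14567 genes), TMM scaling, a robust quasi-likelihood fit without covariate, and Benjamini-Hochberg adjustment over all genes tested. Levels are CPM on TMM-scaled library sizes, as mean ± SD. Standard errors were derived from the F statistic. The fit was checked on simulated counts. Alternatives were RLE, library-size, nuclear-gene and mitochondrial-total scaling, 2 other filters, DESeq2 1.42.0, the title digits as covariate, and each replicate left out. Nuclear copies were found with blastn 2.17.0 (at least 90% identity) among GENCODE M21 transcripts.

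Members, gene lists and tests were chosen with earlier results of these data known. Values are given for all mRNAs and rRNAs, for the 6 tRNAs of highest mean count, for Polrmt, Tfam, Lrpprc, Slirp and the 6 other genes of the machinery of smallest p, for the 5 nuclear copies of highest mean count, and for the subunit of smallest p in each complex. Gm10222 and genes of marker lists were chosen after their values were seen.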

Additional observations from a re-analysis of the deposited data

Results flagged for a closer look

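In groups of 4 libraries, a library was singled out when its gap to the nearest other, as a share of the whole range, passed Dixon's 95% critical value. This was asked 52 times and met 7 times, and chance alone meets it in about 1 in 20 groups. Levels, shares and ratios of the same genes were examined, so the 52 checks depend on each other. The 7 can therefore not be set against that rate.

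WT replicate 3 was the lowest WT library for mt-Nd1, at 17466 CPM against 23854 to 25122 CPM in the other WT libraries, and for mt-Nd6, at 33.4 CPM against 47.6 to 49.8 CPM. HET replicate 4 was the lowest HET library for mt-Nd6, at 32.9 CPM against 46.3 to 48.6 CPM. In that library there were 586 mt-Nd5 counts for each mt-Nd6 count, against 377 to 409 in the other HET libraries. HET replicate 2 was the lowest HET library for mt-Nd5, at 17438 CPM against 19213 to 19510 CPM, and the highest for mt-Tt, at 2.81 CPM against 1.80 to 1.91 CPM. WT replicate 2 had the lowest share of mt-Co1 among the WT libraries, 30.6% of mitochondrial counts against 31.8% to 31.9%.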

How the results depend on the processing

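No mitochondrial gene was called under any of the 16 alternatives, with adjusted p-values of 0.563 to 1.0, but directions were not fixed. No paired analysis was possible because replicate numbers follow the order of deposition and pair nothing. Over all genes 1 was called, against 2 without a filter and 13 with DESeq2, and 1 to 3 with a replicate left out. Signs turned in 21 of 260 values for single genes. With library-size scaling these were mt-Rnr1 (-0.037), mt-Nd4 (-0.0098), mt-Cytb (-0.0064), mt-Tm (-0.021), Polrmt (-0.0087) and Gm11512 (-0.035). With scaling to the mitochondrial total they were mt-Rnr1 (-0.087), mt-Nd1 (-0.015), mt-Nd4 (-0.057), mt-Cytb (-0.051), mt-Tm (-0.086), Polrmt (-0.064), Lrpprc (-0.030), Uqcrc2 (-0.026), Atp5a1 (-0.028) and Gm11512 (-0.067). With a filter of 1 CPM it was mt-Rnr1 (-0.0023), and with the title digits as covariate mt-Ti (0.18), mt-Tm (-0.0044), Gm13341 (0.060) and Gm4076 (-0.063). With 1 replicate left out, 27 of 264 signs turned, and the log2 fold changes ran from -0.093 to 0.078 for mt-Rnr1, -0.042 to 0.12 for mt-Nd1, -0.056 to 0.11 for mt-Nd4, -0.17 to 0.072 for mt-Nd6, -0.060 to 0.13 for mt-Cytb, -0.21 to 0.12 for mt-Ti, -0.19 to 0.065 for mt-Tw, -0.14 to 0.15 for mt-Tm, -0.029 to 0.071 for Polrmt, -0.044 to 0.0019 for Slirp, -0.090 to 0.048 for Gm13341 and -0.19 to 0.17 for Gm11512. The 3 genes called came without HET replicate 3. At an unadjusted p under 0.05 stood mt-Rnr2 without HET replicate 1 (0.23, adjusted p = 0.859 by edgeR), mt-Nd5 without WT replicate 1 (0.21, adjusted p = 0.563), and without a filter mt-Tq (-1.96) and mt-Tp (-1.64, both adjusted p = 0.777). The cause was not tested. At these depths counting error is negligible for the abundant mRNAs and limits the near-empty genes, for which no difference could be detected.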
